A study of Mus musculus with 12 samples.

Results

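The histone methylation enzymes examined here comprised a list of 41 mouse genes for lysine methyltransferases, Polycomb repressive complex 2 subunits and lysine demethylases. The list was drawn up with earlier results of these data known and leaves out further enzymes such as Suv39h1 and Kdm6a, which are described at the end. They were followed through 6 lists of N6-methyladenosine (m6A) peaks by taking every peak that overlapped the RefSeq span of a listed gene. All 41 genes were found among the 21900 protein-coding genes of the table, and 946 of 118075 peaks overlapped their spans. Of these, 922 could be placed in a listed gene, and the rest also lay in another gene and were not counted.

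The 3 iNSC libraries were compared with 3 SSC libraries, each an anti-m6A immunoprecipitation of poly(A) RNA fragmented to about 200 nt. The iNSCs were neural stem cell-like cells derived from SSCs on laminin, with 1 µM retinoic acid for 24 h and then a neural medium with basic FGF and 10 µM SB431542, which blocks TGF-β type I receptors. The SSCs were mouse spermatogonial stem cells, from which sperm production is maintained in the testis, grown on inactivated STO fibroblast feeders with GDNF and LIF. The labels state no strain, sex, age or number of animals, and the inputs (6 libraries) were not analysed here. The question was how m6A differs between the derived and the starting cells.

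Histone methyltransferases place methyl groups on lysines of histone tails, and the site decides the usual setting. Methylation of H3K4 marks promoters and enhancers, H3K36 and H3K79 methylation marks transcribed genes, and H3K9, H3K27 and H4K20 methylation is tied to repressed chromatin. Demethylases of the amine oxidase (KDM1) and JmjC (KDM2 to KDM7) families remove these marks, and both sets of enzymes are needed for germ cell development and for neural fate choice. m6A is a methyl mark of mRNA itself, known to concentrate in long internal exons and near stop codons. A peak needs both the transcript and its methylation, so a missing peak does not tell fewer cells, less RNA per cell and less methylation apart.

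The iNSC lists were shorter, with 13913, 16002 and 16060 peaks, against 27597, 19728 and 24775 peaks in the SSC lists. Their peaks were wider, with a median of 433, 397 and 368 bases, against 193, 205 and 202 bases in SSCs. Germ cell markers had a peak in 0 of 8 genes in each iNSC list, against 8, 7 and 7 of 8 genes in the SSC lists, where their peaks covered 7990 to 10909 bases in sum. Endothelial and epithelial markers showed the same split, with 0 of 8 genes in each iNSC list, against 7, 6 and 6 of 8 genes and 3727 to 4878 covered bases in SSCs. Of the neural stem cell markers, 2 of 8 had a peak in each iNSC list and 3 of 8 in each SSC list, while Sox1, Fabp7, Hes5 and Olig2 had none in any list. Pax6 had a peak in the 3 iNSC lists alone, and Sox2 and Msi1 had peaks in the 3 SSC lists alone. Nes had peaks in both groups, covering 3115, 2920 and 3809 bases in iNSCs and 5031, 5026 and 5031 in SSCs. Fibroblast markers had a peak in 5, 4 and 5 of 8 genes in iNSCs and in 6, 5 and 8 of 8 genes in SSCs. The part of list length, peak width and these other cell types in the results below was not tested. Sequencing depth is unknown, because the lists hold no read counts.

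Nearly all of the enzyme genes carried m6A peaks in both cell types. A peak was present in 33, 35 and 36 of the 41 genes in the iNSC lists and in 39, 37 and 37 genes in the SSC lists. As shares, these are 84.6% ± 3.73 in iNSCs and 91.9% ± 2.82 in SSCs (SD, n = 3 each), against 31.1% ± 1.31 and 42.6% ± 4.64 of all protein-coding genes in iNSCs and SSCs. The highest iNSC list (87.8%) stayed below the lowest SSC list (90.2%). In total 40 genes had a peak in at least 1 list and 29 of them (72.5%) had one in all 6 lists, where 30.1% of the 13197 genes with any peak did. The enzyme genes are long, with a median span of 57.3 kb among the 40, against 25.9 kb among all genes with a peak, and the part of gene length in this share was not tested.

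**Figure D1:**
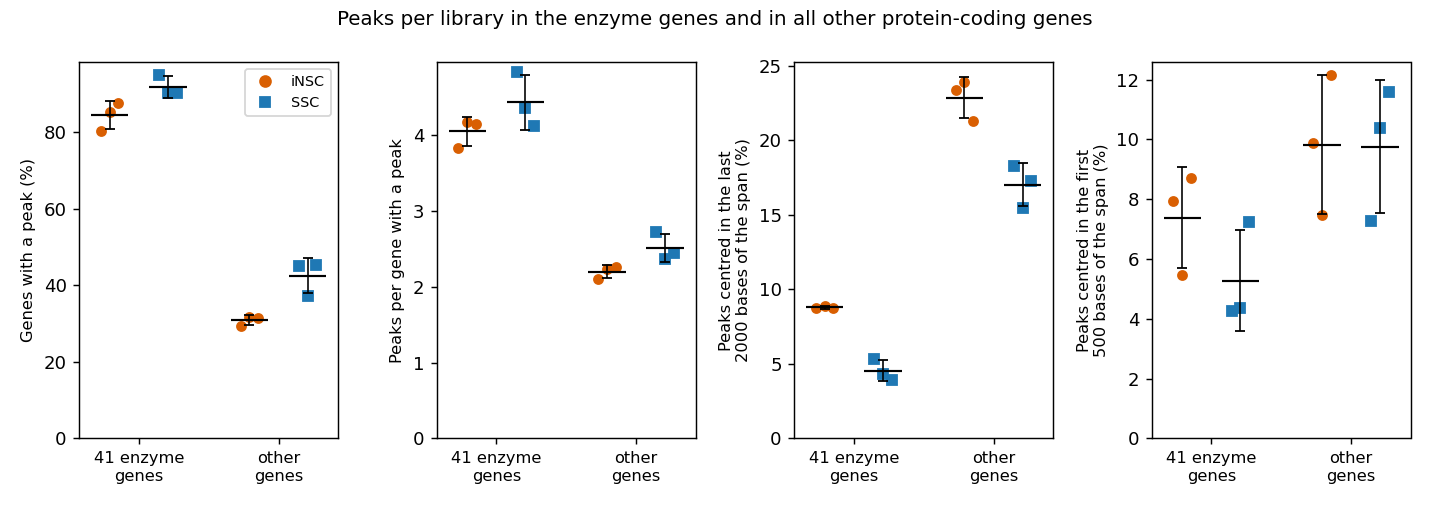
Each panel gives 1 measure per library, for the 41 enzyme genes and for all other protein-coding genes: the share of genes with a peak (%), peaks per gene with a peak, and the shares of peaks (%) centred within 2000 bases of the gene's end or within 500 bases of its start. Points are libraries (circles iNSC, squares SSC), lines are means and bars are SD (n = 3 each). Between 80.5% and 95.1% of the enzyme genes had a peak in each library, and 3.95% to 8.90% of their peaks lay near the end, against 15.5% to 23.9% of those of other genes.

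Enzyme genes with a peak held 4.04 ± 0.195 peaks each in iNSCs and 4.43 ± 0.362 in SSCs (n = 3 each). All genes with a peak held 2.21 ± 0.0870 in iNSCs and 2.52 ± 0.187 in SSCs. The 2 ranges of the enzyme genes overlapped, with 3.82, 4.17 and 4.14 peaks per gene in the iNSC lists and 4.82, 4.35 and 4.11 in the SSC lists. The direction turned when every list was reduced to the 13913 best-scoring peaks, to 3.70 in iNSCs and 3.30 in SSCs. The peaks of the enzyme genes had a median width of 389, 261.5 and 384 bases in iNSCs, against 182, 172 and 184 bases in SSCs, in the same direction as the lists as a whole. The number of bases of a gene covered by peaks was therefore used beside the number of peaks. Splitting 1 peak into adjoining entries leaves it unchanged. Bases in gaps between entries are not counted, so a split that leaves gaps lowers it. Covered bases count whole peaks placed in a gene, including bases beyond the annotated span, which Eed, Ezh2, Suv39h2 and Setd5 had. Entries are genomic intervals without exon blocks, so covered bases may also include introns.

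Covered bases separated the 3 iNSC from the 3 SSC lists in 19 of the 40 genes with a peak. In 12 genes (30%) each iNSC list lay above each SSC list, where 17.5% of all genes with a peak did so. In 7 genes (17.5%) each SSC list lay above each iNSC list, where 15.6% of all genes did so. The median difference, iNSC minus SSC, was 471 bases over the 40 genes and -54.7 bases over all 13197 genes. For each such gene the exact two-sided permutation test gave p = 0.1, the smallest that 3 libraries against 3 allow, and 0.302 after Benjamini-Hochberg adjustment over all genes. With bases inside the span alone, the 12 and the 7 genes were the same. No single gene could pass the test in this design, so the genes below are described by their values. In the better-scoring 50% of each list Suz12, Kmt5a, Kdm2a, Kdm4a and Kdm7a no longer lay higher in every iNSC list. Setd2, Nsd1, Kdm1a, Kdm1b and Kdm4c no longer lay lower in every iNSC list there. Other genes became separated in that cut. Kdm2b, Kdm3a and Kmt2b then lay higher in every iNSC list, and Ash1l, Kdm7a, Nsd2 and Setdb1 lower. Leaving out 1 SSC library moved the difference of 5 genes by over 1.5 times: Kmt2a to 2649.5 bases and Setd5 to 1197 without replicate 3, Kmt2d to 2336 without replicate 2, and Nsd1 to -1294.5 and Kdm1a to -105.5 without replicate 1.

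**Figure D2:**
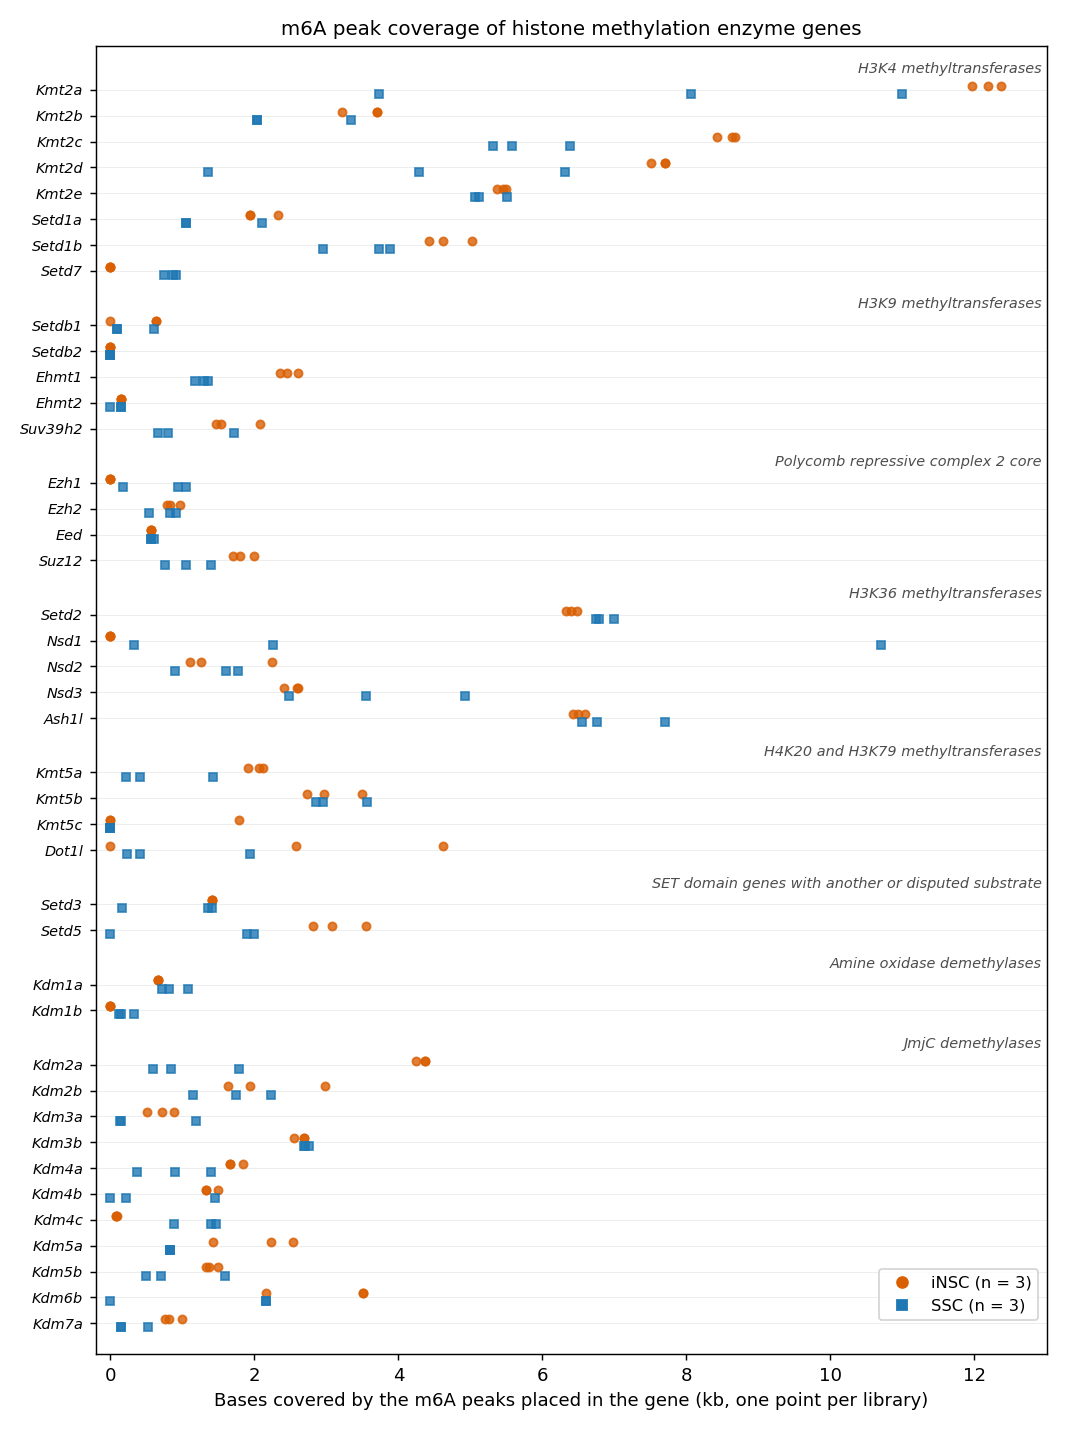
Bases covered by the m6A peaks placed in each gene (kb), with 1 point per library, for the 41 genes in 8 enzyme classes (circles iNSC, squares SSC, n = 3 each). Kmt2a, Kmt2c and Kmt2d lay higher in each iNSC library than in each SSC library, while Setd7, Ezh1, Nsd1 and Kdm1b lay at 0 in the iNSC libraries.

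Of the 8 H3K4 methyltransferase genes, 4 were covered more in each iNSC list than in each SSC list (Kmt2a, Kmt2c, Kmt2d and Setd1b), 1 less (Setd7), and in 3 the groups overlapped. Of all genes with a peak, 17.5% were covered more in this way and 15.6% less. By number of peaks, 0 of the 8 genes lay higher in each iNSC list. The 2 shares above are for covered bases, and the share of all genes by number of peaks is not given here. Kmt2a, which encodes the MLL1 enzyme that maintains Hox gene expression, had 11970, 12191 and 12373 covered bases in iNSCs and 10990, 8067 and 3727 in SSCs. The iNSC lists agreed closely while the SSC lists ranged widely, and the mean difference was 4583 bases. Kmt2d, an enhancer methyltransferase, had 7701, 7509 and 7701 covered bases in iNSCs, against 4290, 1363 and 6312 in SSCs. Its relative Kmt2c had 8671, 8633 and 8428 covered bases in iNSCs and 5577, 6388 and 5316 in SSCs, from 12, 14 and 11 peaks in iNSCs and 13, 15 and 11 in SSCs. In covered bases neither gene's groups overlapped, although in number of peaks both genes' did. Kmt2d had 5, 4 and 5 peaks in iNSCs and 4, 2 and 4 in SSCs.

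Setd1b, a catalytic subunit of the COMPASS complex that deposits H3K4 trimethylation at promoters, had 4622, 5023 and 4427 covered bases in iNSCs and 3728, 2960 and 3884 in SSCs. In its paralog Setd1a the groups overlapped, with 1945, 1945 and 2333 covered bases in iNSCs and 1047, 1047 and 2103 in SSCs. Kmt2b, the promoter enzyme MLL2, also overlapped, with 3708, 3212 and 3708 covered bases in iNSCs and 2036, 2036 and 3336 in SSCs. In both genes SSC replicate 3 was the one that reached into the iNSC range. Kmt2e, an MLL family gene not known to have methyltransferase activity of its own, had 5453, 5496 and 5375 covered bases in iNSCs and 5507, 5124 and 5065 in SSCs, the closest match in this class.

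Setd7, which methylates H3K4 as well as non-histone proteins, went against the rest of the class. It had 0 covered bases in the 3 iNSC lists, against 871, 919 and 746 in the SSC lists, from 3, 4 and 4 peaks. Its SSC peaks included the interval chr3:51536466-51536655 in the 3 SSC lists. Setd7 was 1 of 4 enzyme genes (10%) with a peak in each SSC list and in no iNSC list, a state held by 11.3% of all genes with a peak. No enzyme gene showed the opposite state, held by 2.17% of all genes with a peak.

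The other 3 genes of this kind were Nsd1, Ezh1 and Kdm1b. Nsd1, an H3K36 dimethyltransferase, had 0 covered bases in iNSCs, against 10707, 2266 and 323 in SSCs. In SSC replicate 1, 1 entry of 6187 bases ending near the 3′ end of the gene made up most of this, with a score better than only 18.2% of that list. Ezh1, the alternative catalytic subunit of Polycomb repressive complex 2, had 0 covered bases in iNSCs, against 177, 1052 and 936 in SSCs. Kdm1b, an H3K4 demethylase needed for maternal imprints in mouse oocytes, had 0 covered bases in iNSCs, against 323, 117 and 148 in SSCs. Its 7 peaks were short, and no region of the gene was called in the 3 SSC lists together. Setd7 and Ezh1 stayed SSC-only when each list kept its better-scoring 50%, and when all lists had equal length. Nsd1 and Kdm1b did not, because Nsd1 then had no peak in SSC replicate 3 and Kdm1b none in SSC replicate 2.

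**Figure D3:**
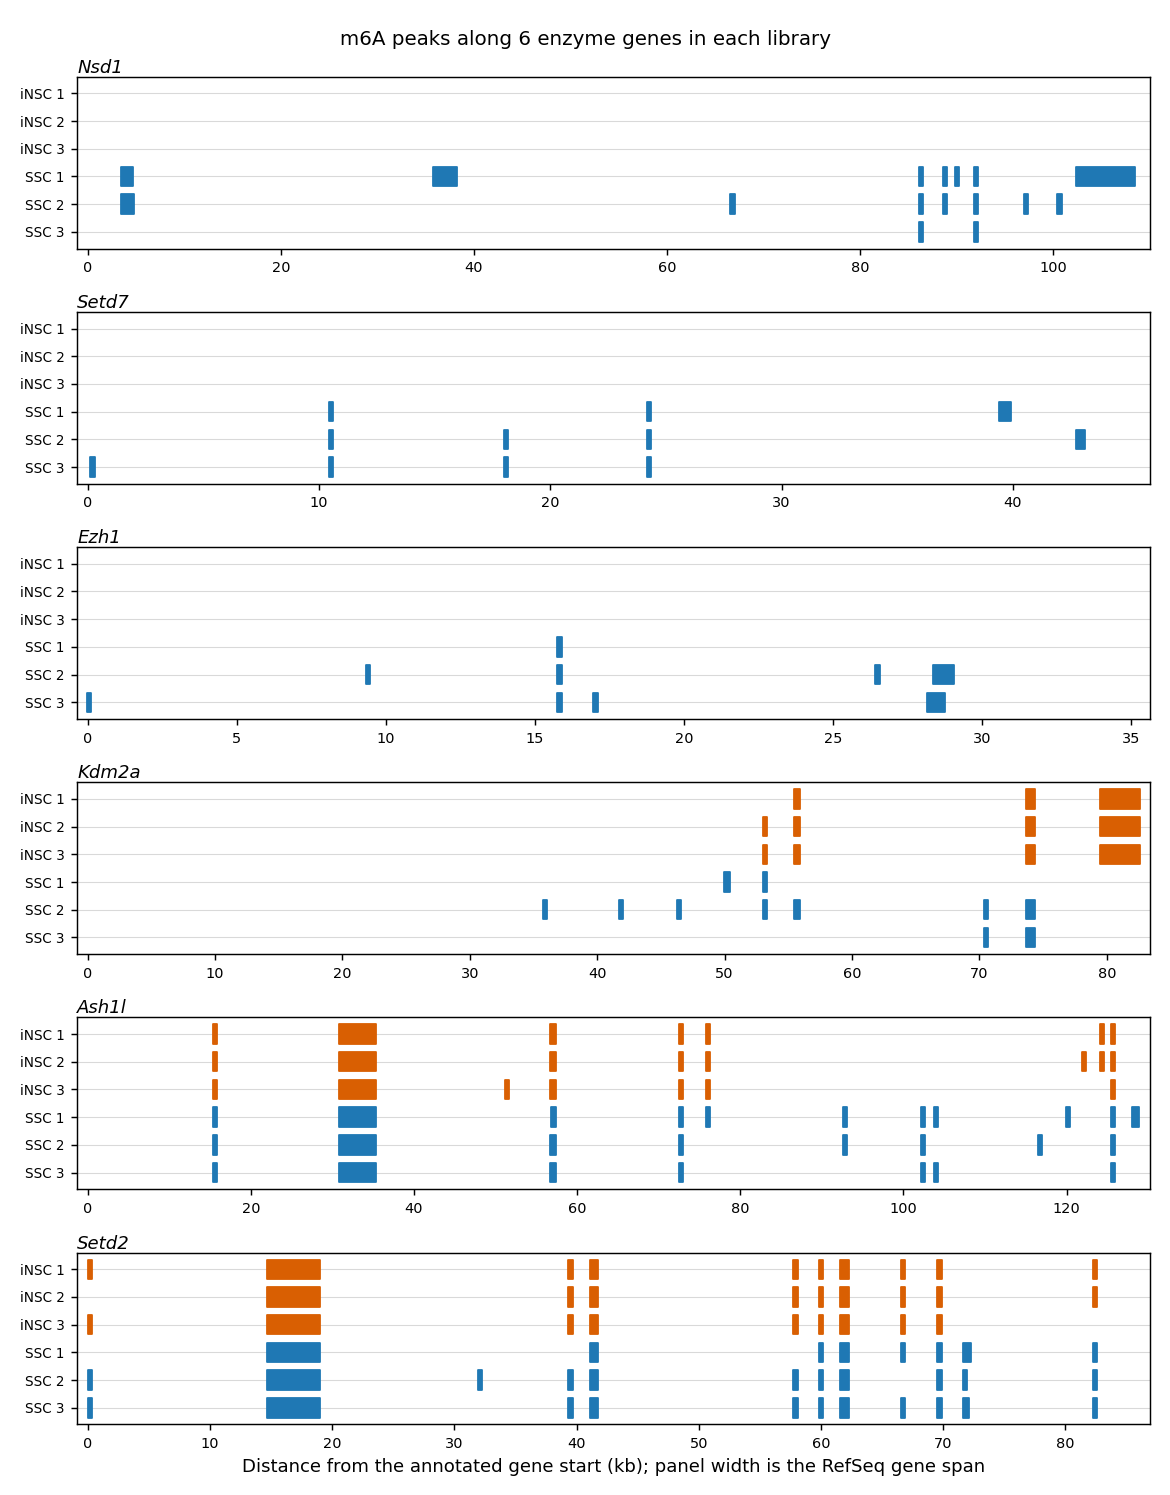
Each panel runs along 1 gene from its annotated start (distance in kb) to its end, with a row per library (orange iNSC, blue SSC). Bars are m6A peak entries, and short ones are widened to stay visible. Nsd1, Setd7 and Ezh1 have entries in SSC rows alone, Kdm2a has a broad entry at its end in the 3 iNSC rows, and Ash1l and Setd2 share a broad entry in all 6 rows.

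The core of Polycomb repressive complex 2, which methylates H3K27, otherwise had peaks in all 6 lists. Ezh2, its main catalytic subunit, had 965, 836 and 786 covered bases in iNSCs and 908, 827 and 542 in SSCs, so the groups overlapped. Eed, the subunit that binds H3K27 trimethylation, had 572 covered bases in each iNSC list and 572, 609 and 572 in the SSC lists. Each list held 1 Eed peak. That of SSC replicate 2 was on the opposite strand, and 381 of its 609 bases lay upstream of the gene. Suz12, a scaffold subunit, had 1800, 1702 and 1993 covered bases in iNSCs, against 1051, 1401 and 759 in SSCs, without overlap.

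Among the 5 H3K36 methyltransferases, 0 had higher coverage in iNSCs without overlap, beside 17.5% of all genes, and 2 had lower coverage, beside 15.6%. These were Nsd1 and Setd2, and both overlapped in the better-scoring 50%. Setd2, which trimethylates H3K36, had 6481, 6325 and 6400 covered bases in iNSCs and 6784, 6747 and 6999 in SSCs, a difference of -441 bases without overlap of the groups, or -229 bases at equal list length. Ash1l, which dimethylates H3K36 and counteracts Polycomb, had 6429, 6596 and 6490 covered bases in iNSCs and 7707, 6752 and 6552 in SSCs. Nsd3, a relative of Nsd1, had 2607, 2598 and 2408 covered bases in iNSCs and 4932, 2478 and 3552 in SSCs, and Nsd2, an H3K36 dimethyltransferase, had 1109, 2240 and 1262 in iNSCs and 1779, 1611 and 900 in SSCs. The groups of Ash1l, Nsd3 and Nsd2 overlapped with all peaks counted. In the better-scoring 50% Ash1l and Nsd2 lay higher in each SSC list. Ash1l then had 6113, 6334 and 5811 covered bases in iNSCs and 6489, 6458 and 6458 in SSCs. Nsd2 then had 626 in each iNSC list and 1160, 1611 and 900 in the SSC lists.

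The H3K9 methyltransferases differed among themselves. Ehmt1, which with Ehmt2 forms the euchromatic H3K9 dimethyltransferase, had 2449, 2608 and 2364 covered bases in iNSCs and 1362, 1173 and 1296 in SSCs, with 6 to 8 peaks in every list. Ehmt2 had a single peak of 156 bases in 5 of the 6 lists and none in SSC replicate 3. Suv39h2, which trimethylates H3K9 and is enriched in mouse testis, had 2083, 1469 and 1531 covered bases in iNSCs and 1722, 660 and 806 in SSCs, with overlap. Setdb1, which silences retroelements through H3K9 trimethylation, had 0, 629 and 629 covered bases in iNSCs and 614, 100 and 100 in SSCs. Its iNSC peaks scored better than only 4.17% and 9.42% of their lists, and with only the better-scoring 50% kept Setdb1 had peaks in the 3 SSC lists alone. Setdb2 was the gene with no placed peak. Its span held 2, 3 and 3 peaks in iNSCs and 6, 4 and 3 in SSCs, but all of them also lay in Gm45935, a longer gene of the same strand that contains it.

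The H4K20 and H3K79 methyltransferases had few peaks. Kmt5a, which monomethylates H4K20, had 1907, 2064 and 2124 covered bases in iNSCs, against 1423, 408 and 217 in SSCs. Kmt5b, which adds the further methyl groups to H4K20, had 2731, 2965 and 3489 covered bases in iNSCs and 2859, 2958 and 3564 in SSCs, which overlapped. Its paralog Kmt5c had 2 peaks in iNSC replicate 3 and none elsewhere. Dot1l, the H3K79 methyltransferase, varied within groups, with 0, 4627 and 2576 covered bases in iNSCs and 232, 407 and 1941 in SSCs. Of the SET domain genes with another or a disputed substrate, Setd5 had 3075, 2813 and 3546 covered bases in iNSCs and 1992, 1904 and 0 in SSCs. Setd3, an actin histidine methyltransferase, had 1409 covered bases in each iNSC list and 161, 1358 and 1409 in the SSC lists.

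The 2 amine oxidase demethylases were both covered less in each iNSC list than in each SSC list, beside 15.6% of all genes with a peak. Kdm1a, the H3K4 demethylase LSD1, had 658 covered bases in each iNSC list from 2 peaks, against 1078, 809 and 718 bases from 6, 4 and 3 peaks in SSCs. At equal list length Kdm1a had 658 covered bases in each iNSC list and 966, 718 and 658 in the SSC lists, so the groups then touched. Kdm1b is described above.

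All 11 JmjC demethylases had a peak in each iNSC list, and 11, 9 and 11 had one in the SSC lists. Of all protein-coding genes, a mean of 31.1% had a peak in iNSCs and 42.6% in SSCs. Covered bases were higher in each iNSC list in 4 of the 11 and lower in 1, beside 17.5% and 15.6% of all genes with a peak. Kdm2a, an H3K36 demethylase, had 4243, 4370 and 4370 covered bases in iNSCs, against 600, 1789 and 842 in SSCs, a ratio of 4.02. The iNSC-only region of 3138 bases at the gene end was part of this, and in the better-scoring 50% the means were 973 bases in iNSCs and 579 in SSCs, with overlap. Kdm4a, which removes methyl groups from H3K9 and H3K36, had 1662, 1838 and 1662 covered bases in iNSCs, against 1400, 369 and 898 in SSCs. Kdm5a, an H3K4 demethylase, had 1433, 2227 and 2539 covered bases in iNSCs, against 832 in each SSC list. Kdm7a, which acts on H3K9 and H3K27, had 813, 999 and 764 covered bases in iNSCs, against 526, 155 and 155 in SSCs. The best Kdm7a peaks of the iNSC lists had percentiles of 23.4, 38.3 and 14.5, and the direction turned in the better-scoring 50%, with 0 bases in each iNSC list and 155 in each SSC list.

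Kdm4c, a relative of Kdm4a needed for embryonic stem cell self-renewal, went the other way. It had 90, 86 and 76 covered bases in iNSCs, against 1470, 879 and 1403 in SSCs, from 1 peak in each iNSC list and 7, 3 and 8 peaks in the SSC lists. In the other 6 JmjC genes the groups overlapped. Kdm6b, an H3K27 demethylase, had 2168, 3510 and 3510 covered bases in iNSCs and 2168, 0 and 2168 in SSCs. Kdm3b, an H3K9 demethylase, had nearly equal coverage, with 2547, 2697 and 2689 bases in iNSCs and 2691, 2701 and 2765 in SSCs. Kdm2b, an H3K36 demethylase that also recruits a Polycomb complex to CpG islands, had 1636, 1936 and 2981 covered bases in iNSCs and 2228, 1753 and 1146 in SSCs. Kdm3a, an H3K9 demethylase required for mouse spermiogenesis, had 512, 881 and 717 in iNSCs and 1194, 156 and 140 in SSCs. Kdm4b, a relative of Kdm4a, had 1328, 1325 and 1493 in iNSCs and 214, 0 and 1459 in SSCs. Kdm5b, an H3K4 demethylase, had 1490, 1367 and 1324 in iNSCs and 1587, 698 and 497 in SSCs.

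Several enzyme genes carried a peak with the same 2 edges in all 6 lists, and the 2 broadest lay far inside the gene. There were 37 such intervals in 17 genes, out of 419 distinct intervals in the enzyme genes (8.83%), beside 3.66% of 74042 intervals in all protein-coding genes. The broadest, in Ash1l, spanned 4558 bases at chr3:88981233-88985790, 30.8 kb from the gene start. Next came a Setd2 interval of 4286 bases at chr9:110547209-110551494, 14.7 kb from the gene start. Kmt2a had 1 of 2651 bases at chr9:44847404-44850054, Kmt2b 1 of 2036 bases, Kmt2c 1 of 1707 bases and Kdm3b 1 of 1249 bases. Exon models were not used here, so whether these intervals are single exons was not tested. Over merged regions, 49 of the 302 regions of the enzyme genes (16.2%) were called in all 6 lists, where 10.1% of all regions in protein-coding genes were.

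Single regions were also called in 1 cell type alone, in 16 genes that had peaks in both. Of the 302 merged regions, 9 (2.98%) were called in the 3 iNSC lists alone, where 3.38% of all regions were, and 16 (5.3%) in the 3 SSC lists alone, where 5.6% were. Both shares were near those of all regions. Without SSC replicate 1, 2 or 3 the iNSC-only regions numbered 20, 16 and 14, and without SSC replicate 2 or 3 the SSC-only regions numbered 25 and 31. Dropping a list loosens the rule on both sides, so these counts can only rise by construction. In the better-scoring 50%, 5 of the 9 iNSC-only and 7 of the 16 SSC-only regions still overlapped a region called the same way, and 8 and 9 did at equal list length. The iNSC-only regions were broad, with a median of 1117 bases (80 to 3138), and the SSC-only regions narrow, with a median of 152.5 bases (97 to 628).

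Ranked by the lowest of their 3 percentiles, the first iNSC-only region lay in Kmt2d at chr15:98849220-98851201. Its within-list score percentiles there were 78.5, 99.5 and 99.6. Peaks tied at the capped score share 1 percentile, so 99.5 and 99.6 only mark the cap. In iNSC replicates 2 and 3, 17.6% and 16.1% of the peaks in protein-coding genes were at the cap. Kmt2c held 2 iNSC-only regions, at chr5:25284067-25285183 and chr5:25309600-25311419, where no SSC list had a peak. Ehmt1 (chr2:24790769-24792130) and Kdm2a (chr19:4316144-4319281) each had 1 that reached the annotated 3′ end of the gene. In Ehmt1 only the entry of iNSC replicate 2 reached it, and those of replicates 1 and 3 stopped short, at 24790928 and 24791013. Kdm5a (chr6:120364099-120364778) and Kmt5a (chr5:124439930-124440015) each had 1 that began at the first annotated base. Kdm7a and Suz12 held the last 2, whose lowest percentiles were 14.5 and 7.47.

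In the same ranking, the first SSC-only region lay in Nsd2 at chr5:33864660-33864778, with percentiles of 82.4, 90.9 and 79.2. It was followed by regions in Kdm5b (chr1:134595800-134595896), Dot1l (chr10:80783424-80783655), Ash1l (chr3:89052743-89052907), Setd7, Setdb1 (chr3:95347996-95348095), Kdm3b, Setd2 (chr9:110604120-110604747), Kdm4c (chr4:74404821-74405303) and Nsd1 (chr13:55295987-55296192). The Kdm4c region lay 0.561 kb from the 3′ end of the gene, and the others of these 10 lay at least 7.81 kb from it. The remaining 6 were in Nsd1, Kdm3b, Ezh1, Kmt2c, Setd7 and Kdm4c.

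Peaks near the gene ends were counted next. The last 2000 bases of the span held 8.73%, 8.90% and 8.72% of their peaks in iNSCs, against 5.32%, 4.35% and 3.95% in SSCs, by the centre of each peak. These groups did not overlap, and the means were 8.79% ± 0.102 in iNSCs and 4.54% ± 0.705 in SSCs (n = 3 each). Peaks of all other protein-coding genes lay there in 22.8% ± 1.37 of cases in iNSCs and 17.0% ± 1.44 in SSCs, so the iNSC lists were higher in both sets. The window is 3.49% of the median span of the enzyme genes with a peak and 7.72% of that of all genes with a peak, and the part of gene length in the gap between the sets was not tested. By class, JmjC demethylases had 17 of 98 peaks there in iNSCs and 10 of 109 in SSCs. H3K36 methyltransferases had 0 of 80 in iNSCs and 2 of 116 in SSCs, and H3K4 methyltransferases 3 of 133 in iNSCs and 5 of 147 in SSCs. Setd3 and Setd5 together had 6 of 16 in iNSCs and 3 of 12 in SSCs. Kmt2e was the single gene with such a peak in all 6 lists. Ehmt1 and Kdm2a had one in the 3 iNSC lists alone, and Kdm4c in the 3 SSC lists alone.

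By the same measure, with any peak centred upstream counted too, the first 500 bases held 7.94%, 5.48% and 8.72% of the enzyme genes' peaks in iNSCs and 4.26%, 4.35% and 7.24% in SSCs, and the groups overlapped. In all, 17 of the genes had a peak there in some list. Ehmt1, Ezh2 and Kdm1a had one in all 6 lists. For Ezh2 these were separate regions, chr6:47595184-47595341 in the 3 iNSC lists and SSC replicate 1, and chr6:47594894-47595030 in SSC replicates 2 and 3. Eed had one in 5 lists, and in SSC replicate 2 its opposite-strand peak was centred 77 bases upstream. Kdm5a and Kmt5a had one in the 3 iNSC lists alone. In the Polycomb core 7 of 32 peaks lay there in iNSCs and 9 of 40 in SSCs, the upstream Eed peak included, and in the JmjC demethylases 3 of 98 in iNSCs and 0 of 109 in SSCs.

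The first 30 transcribed bases are shown for the starts that peaks covered whole in all 6 lists (Eed, Ehmt1, Kdm1a) or in the 3 iNSC lists alone (Kmt5a), and for Kdm1b, the covered start that holds the motif. The Eed peak of SSC replicate 2 is the one on the opposite strand. They come from RefSeq (GRCm38.p6), read 5′ to 3′ on the strand of the gene, with the m6A core motif GGAC in capitals where it occurs.
Eed, chr7:89980947-89980976, minus strand: gcgggtcggagatcgaaggattgagccaat
Ehmt1, chr2:24919580-24919609, minus strand: gcgggaggggcggggccacgctgcgggccc
Kdm1a, chr4:136602694-136602723, minus strand: gggcgcgtgcgcacgcgggggtgtttggct
Kmt5a, chr5:124439930-124439959, plus strand: agttggctacagttgttgcaacttttttcg
Kdm1b, chr13:47043499-47043528, plus strand: gccgGGACcctcctgctccctgggcctgtg

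Promoter sequences were at hand for 29 of the 41 genes, with 40 starts, of which 14 were covered whole in at least 1 list. GGAC, searched on the transcript strand alone, was present in 1 of these 14 windows, that of Kdm1b, where 11.2% of 32851 starts in the table held it. The first base was A in 2 of the 14, those of Kmt5a and Kmt2a, where 34.4% of all starts begin with A. The first base is of interest because anti-m6A antibodies also bind the methylated adenosine next to the mRNA cap. A peak edge fell exactly on the first base of the Ehmt1 and Kdm1a starts in all 6 lists, and on that of Kmt5a in the 3 iNSC lists.

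Percentiles from lists of different lengths are not comparable, so scores were ranked with every list at 13913 peaks. The median percentile of the enzyme genes' peaks was then 51.6, 52.9 and 53.4 in iNSCs, against 65.2, 61.6 and 63.2 in SSCs, without overlap. The peaks of all other genes had a median near the middle of each list. The share of peaks at the capped score was taken over the full lists, which differ in length. For the enzyme genes it was higher in iNSCs, at 19.8% ± 2.77, against 9.34% ± 3.02 in SSCs (n = 3 each). The corresponding shares of other genes were 16.2% ± 1.36 in iNSCs and 5.22% ± 2.01 in SSCs.

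Partners and relatives of these enzymes, 76 further genes listed by complex and family, were examined in the same way. Of 67 with a peak, 28 had one in all 6 lists, beside 30.1% of all genes with a peak. Of these 67, 2 (2.99%) were iNSC-only, beside 2.17% of all genes with a peak, and 6 (8.96%) were SSC-only, beside 11.3%. Suv39h1, the paralog of Suv39h2, was iNSC-only with 822 covered bases in each iNSC list. Mecom, a PRDM family zinc finger gene, was the other, with 3565, 3812 and 3375 covered bases in iNSCs. The SSC-only genes included Ash2l, a core subunit of the COMPASS and MLL complexes, with 363, 494 and 299 covered bases in SSCs. Among the Polycomb accessory subunits, Epop had 2330 covered bases in each SSC list and Ezhip, a PRC2 inhibitor expressed in germ cells, had 1764, 1949 and 1989. Prdm16 had 3852, 2784 and 5555 covered bases in SSCs. Setd4, with 423, 96 and 96 covered bases in SSCs, and the demethylase gene Kdm5d, with 1020, 597 and 509, completed the 6. Kdm6a had peaks in both groups. They covered 2353, 2298 and 2078 bases in iNSCs and 1811, 1640 and 943 in SSCs, without overlap. Its list, the further SET and JmjC genes, held 2 of 16 genes with higher and 2 of 16 with lower coverage in iNSCs without overlap. The accessory Polycomb subunits held 0 genes with higher and 3 of 7 with lower coverage in iNSCs without overlap, beside 17.5% and 15.6% of all genes. The COMPASS and MLL subunits held 1 of 12 with higher and 1 of 12 with lower coverage, beside 4 and 1 of the 8 H3K4 methyltransferases.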

How the data were processed

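Per the submitters' processing notes, cutadapt 1.9.3, HISAT2 2.0.4 and mm9 were used. How peaks were called was not stated in the labels or files. Each list of 1 library holds intervals and a score per peak, deposited by the authors with no unit, from 50 up and mostly capped at 3100. Scores served only to rank peaks within a list.

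Coordinates are given on GRCm38, 1-based, since 4.90% to 12.0% of peaks per list had an edge on a gene edge of that build's RefSeq table, against 0% after a shift of 10000 bases. Groups follow the sample titles and source names; the cell type field names the opposite cell for all 12 samples, and the series title names MeDIP where the protocols describe RNA immunoprecipitation. Replicates are not stated to be separate cultures, so their spread may be technical.

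A peak (overlap of at least 1 base) over several protein-coding genes went to the gene on its strand, from RefSeq or else from over 90% of the gene's own peaks; 115824 peaks were placed. Same-strand peaks overlapping by at least 1 base were merged into regions. The code (Python 3.11.15, pandas 2.3.3) was tested on simulated data. The enzyme genes, lists and classes were chosen with earlier results of these data known. Values per library are given by rule for genes of 1 group, genes without peaks, the 12 largest separated differences, the 5 broadest genes, 2 more per class and up to 10 regions per direction. The remaining genes were added.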

Additional observations from a re-analysis of the deposited data

How the results depend on the processing

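The alternatives were the better-scoring 50% of each list, all lists at the length of the shortest, a minimum width of 100 bases, any overlap whatever the strand, a peak in 2 of 3 libraries, other windows, regions sharing 50% of the shorter peak, a replicate block by number, and omission of each library in turn. The SSC-only genes, 4 in the main count, numbered 3 at equal length and 5 with peaks of at least 100 bases, where Kdm4c joined them. Setd7 and Ezh1 were among them in both score cuts, while Nsd1 and Kdm1b were not. Among the 19 separated genes, the difference turned in the 2 score cuts only for Kdm7a, in the better-scoring 50% (-155 bases). Leaving out 1 library cannot turn a separated gene. Counting bases inside the span alone, added after seeing the data, gave the same 12 and 7 genes.

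In the better-scoring 50% the share of enzyme genes with a peak differed by -14.6 percentage points (iNSC minus SSC), against -7.32 in the main count. At equal length it differed by -4.07 points, with 82.1% in iNSCs and 86.2% in SSCs, and with peaks of at least 100 bases by -9.76. The share of peaks in the last 2000 bases differed by 6.32 points in the better-scoring 50%, against 4.25 in the main count. The difference for the last 2000 bases was 5.67 points at equal length and 1.94 for the last 1000 bases. The difference in peaks per gene with a peak, -0.384 in the main count, was 0.408 at equal length and -0.0311 with peaks of at least 100 bases. At equal length 19 genes had higher coverage in iNSCs, including the 12 of the main count, and 21 regions were iNSC-only. Equal length shortens the SSC lists, which favours these calls by construction. By number of peaks 0 genes were higher in each iNSC list and 6 were higher in each SSC list. With a peak in 2 of 3 libraries 19 regions were iNSC-only and 46 SSC-only. The shares over all genes and regions at these settings are not given here, so these counts stand without a background. In the better-scoring 50% 7 of the 12 genes higher in iNSCs and 2 of the 7 higher in SSCs remained separated, and 4 of the 7 at equal length. The cause of the other changes was not tested.

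Leaving out 1 library gave 11 to 20 iNSC-only regions, against 9 in the main count, and 16 to 31 SSC-only regions, against 16. Same-numbered libraries did not deviate together (correlations over genes of 0.0107, -0.0181 and 0.0313), so the numbers are not taken as pairs. With the replicate block, 17 genes had higher and 9 lower coverage in iNSCs in each pair, beside 20.5% and 17.3% of all genes with a peak, and the mean differences were unchanged by construction.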
